A study of Mus musculus with 4 samples.

Results

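Kupffer cells are the resident macrophages of the liver, and liposomes filled with clodronate kill phagocytes that swallow them. The comparison described here is that of livers from clodronate-injected and PBS-injected mice kept on a low-fat diet. It takes 2 of the 4 arrays of the study, 1 for each injection. Every probe set with a single gene symbol was used, which gave 18194 genes. All mice were C57BL/6J males, 8 to 12 weeks old when the diets began. The low-fat diet gave 10% of energy as fat for 20 weeks, with palm oil in place of lard. In the final week the mice were injected 2 times into the peritoneal cavity. The group named LF clodronate received clodronate liposomes and the group named LF PBS received phosphate-buffered saline. Liver RNA from 8 mice per group was pooled in equal amounts and put on 1 array, so neither group had a replicate. The other arrays were pools of 10 mice each, with the same injections after 20 weeks on a high-fat diet with 45% of energy as fat, and are used only as a second pair of pools.

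Kupffer cells line the liver sinusoids. They remove bacteria, immune complexes, aged red cells and debris from the blood, and they recycle haem iron. They carry scavenger and complement receptors, make complement C1q, and present antigen on MHC class II. They can also signal to hepatocytes through cytokines. The study asked how Kupffer cells affect fat in the liver, with interleukin-1β and the lipid-sensing receptor PPARα as the candidate route. The controls received PBS and not empty liposomes, so effects of liposomes, of clodronate and of phagocyte loss cannot be told apart. The measurement is of whole liver, in which fewer cells of a type and less RNA per cell cannot be told apart either.

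Values are GCRMA expression on a log2 scale, and a difference is always clodronate minus PBS in log2 units. A value under 4 was taken as too dim to measure. It was set to 4 before the difference was taken, and the fold is then a bound, written "at least". A gene under 5 with PBS, as 1423 of the counted genes were, can therefore not be called 2-fold lower. Of the 18194 genes, 8524 were at 4 or more on at least 1 low-fat array and are counted below, 8153 of them on both. Of all probe sets 34.2% (PBS) and 34.5% (clodronate) were at 4 or more. GCRMA had already put the arrays on a common scale, so this closeness is not a separate check of them. The 18 spike-in probe sets differed by -0.11 to 0.21. The 3′ minus 5′ signal of Actb, a measure of RNA integrity, was 1.22 with PBS and 1.24 with clodronate. With 1 array a side no difference has a test or an error. The central 95% of all genes lay between -0.46 and 0.53, with a median of 0.04, and 60.5% of genes lay above 0. After centring of each array on its median, 4133 of 8496 genes lay above 0.

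The response was one-sided in size. After clodronate, 61 genes (0.716%) were 2-fold or more lower and 19 genes (0.223%) were 2-fold or more higher. At 1.5-fold 141 genes (1.65%) were lower and 151 genes (1.77%) were higher. That split moved with the scaling, to 165 lower and 108 higher after centring of each array and to 170 and 97 after quantile normalization. At 3-fold or more, 35 genes were lower and 3 were higher. Of the 61 lower genes, 25 were under 4 after clodronate, so that their fold is a bound, and 20 belonged to the Kupffer cell or pan-macrophage marker lists. The genes just inside the 2-fold limit differed by -1.01 and 1.00. Just outside it lay Dmpk (-0.99), Gbp8 (-0.99), Gm2788 (0.99) and Pla2g12a (0.99, a bound).

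**Figure D1:**
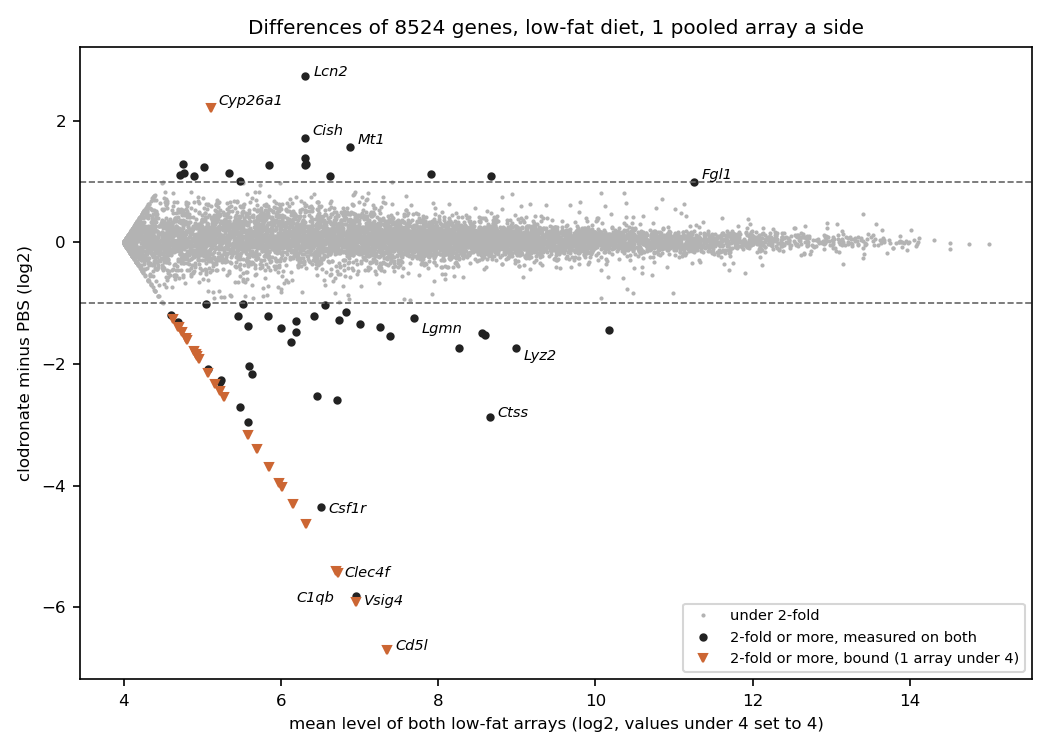
Difference between the clodronate and PBS pools (log2, vertical axis) against the mean level of both low-fat arrays (log2, horizontal axis), 1 point per gene for 8524 genes. Dashed lines mark 2-fold; 61 genes lie at or below the lower line, 25 of them as bounds (triangles), and 19 lie at or above the upper line.

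Most Kupffer cell markers were far lower after clodronate. Of 11 measurable markers 7 were 2-fold or more lower and 10 were below 0, with a median of -1.74 (all genes 0.04). The PBS pool had Cd5l, a secreted scavenger protein of macrophages, at 10.71 and the clodronate pool at 3.38, a fall of at least 105-fold. For Vsig4, a receptor for complement C3 fragments, the values were 9.91 and 2.31 (at least 60.1-fold). For Clec4f, a lectin that marks mouse Kupffer cells, they were 9.40 and 1.92 (at least 42.3-fold). Those 3 genes went from well above the measurable limit to below it. Cd163, the receptor for haptoglobin-haemoglobin complexes, was at 7.95 and 2.04, at least 15.5-fold lower. Folr2, a folate receptor, was at 5.79 and 2.15, at least 3.46-fold lower. Marco, a scavenger receptor, was at 5.40 and 2.33, at least 2.63-fold lower. For Folr2 and Marco the size of the bound was set by the modest PBS signal. Fcna, ficolin A, a lectin that starts the complement lectin pathway, was at 9.14 and 7.40, 3.34-fold lower, so 29.9% of its signal was left.

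A few markers of the same list kept most of their signal. Slc40a1, the iron exporter ferroportin, was at 10.84 with PBS and 10.34 with clodronate, a difference of -0.51. C6, a terminal complement component also made by hepatocytes, was at 10.34 and 10.24. Nr1h3, the oxysterol receptor LXRα, which hepatocytes express as well, was at 7.99 and 8.15. Timd4 was at 4.04 with PBS and below 4 with clodronate, too dim for a difference to show, and Spic was below 4 on both arrays. The summed signal of the 12 markers went from 12.90 to 11.55 (log2), a sum to which the abundant Slc40a1 and C6 contribute on both arrays.

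**Figure D2:**
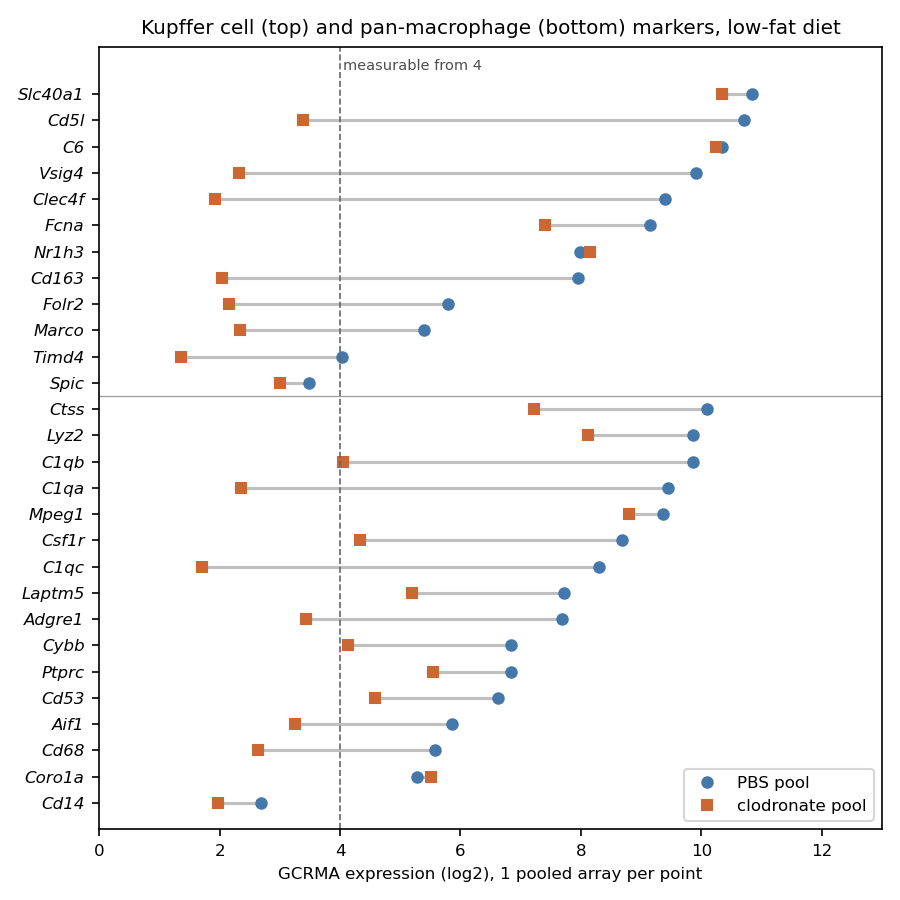
Expression (GCRMA, log2, horizontal axis) of the 12 Kupffer cell markers (top) and 16 pan-macrophage markers (bottom) in the low-fat PBS pool (circles) and clodronate pool (squares), 1 array per point. Left of the dashed line at 4 a value was not measurable; some markers, such as Vsig4 and C1qa, end below 4, others, such as Ctss, Lyz2 and Fcna, are lower but stay well above 4, and the points of C6, Nr1h3 and Coro1a nearly coincide.

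Most of the pan-macrophage list was lower as well. Of 15 measurable members 13 were 2-fold or more lower, with a median of -2.52. The chains of C1q, which opens the classical complement pathway, were all far lower. C1qb was at 9.86 with PBS and 4.04 with clodronate, 56.4-fold lower, and its 3 probe sets differed by -5.82 to -5.04. C1qa was at 9.44 and 2.35, at least 43.4-fold lower. C1qc was at 8.30 and 1.72, at least 19.7-fold lower. Csf1r, the receptor for the macrophage growth factor CSF1, was at 8.68 and 4.33, 20.3-fold lower. Its other probe sets differed by -3.28 and by -3.41, the latter a bound. Adgre1, the F4/80 antigen, was at 7.69 and 3.44, at least 12.9-fold lower. All 5 of these genes thus kept less than 10% of their PBS signal.

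Other members of this list kept more. Ctss, the protease cathepsin S, was at 10.10 and 7.22, 7.35-fold lower. Cybb, the catalytic subunit of the phagocyte NADPH oxidase, was at 6.84 and 4.13, 6.53-fold lower. Another of its probe sets differed by -1.42, a bound. Laptm5, a lysosomal membrane protein of blood cells, was at 7.72 and 5.20, 5.74-fold lower. Its dim second probe set, at 4.12 with PBS, differed by -0.12, a bound that could not have been larger. Cd53, a leukocyte tetraspanin, was at 6.62 and 4.58, and Lyz2, lysozyme of myeloid cells, at 9.86 and 8.12. Lyz2 kept 30.0% of its PBS signal, close to the share of Fcna. Mpeg1, a pore-forming protein of phagocytes, differed by -0.56 and Coro1a, a coat protein of leukocytes, by 0.23. These 2 were the measurable members under 2-fold; they were named after their values were seen. Over both lists, 9 of 26 measurable markers kept under 10% of their PBS signal, 11 kept 10 to 50% and 5 were measured at more than 50%. The remaining marker, Timd4, was too dim to place. For markers under 4 after clodronate the share left is an upper bound.

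PU.1 is the transcription factor that directs macrophage gene expression, and its core site is GAGGAA. The promoter of Vsig4 (RefSeq, assembly GRCm38.p6, chrX:96293439-96293688, minus strand, the 250 bases before the annotated start) is shown because Vsig4 had the largest bound among the receptors of the marker lists. Capitals mark the core, which begins 155 and 53 bases before the start.
Vsig4: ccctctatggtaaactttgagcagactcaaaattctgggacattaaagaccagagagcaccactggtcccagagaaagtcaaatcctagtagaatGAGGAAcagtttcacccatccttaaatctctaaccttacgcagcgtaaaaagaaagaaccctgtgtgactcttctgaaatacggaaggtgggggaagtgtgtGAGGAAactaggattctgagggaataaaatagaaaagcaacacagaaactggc
Of the 20 markers that were 2-fold or more lower, 17 had a promoter entry, and 13 of those held the core on either strand within 250 bases before to 50 after the start. Of all 27025 genes with an entry, 31.3% did. The 20 genes were chosen by their difference, so this count is a description, and a match of 6 letters is not evidence of binding.

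Receptors and adaptors of phagocytosis were lower too. Of 18 measurable members of this list 6 were 2-fold or more lower and 15 were below 0, with a median of -0.74. Tyrobp, the signalling adaptor DAP12, was at 8.01 with PBS and 5.42 with clodronate, 6.04-fold lower. Fcgr3, an activating receptor for IgG, was at 6.15 and 3.11, at least 4.43-fold lower. Fcer1g, the signalling chain of Fc receptors, was at 6.94 and 5.31, 3.10-fold lower. Axl, a receptor for apoptotic cells, was at 5.91 and 3.11, at least 3.76-fold lower. Itgb2, the β2 integrin chain, differed by -1.20. Both measurable subunits of the membrane-bound NADPH oxidase core were lower, Cybb as above and Cyba, its partner chain, at 6.93 and 5.46, 2.78-fold lower. In the list of myeloid signalling and transcription 0 of 13 measurable genes were 2-fold lower, but 6 of them were under 5 with PBS and could not have been called. Csf2ra, a receptor chain for the growth factor GM-CSF, was one of these, at 4.98 with PBS and 3.40 with clodronate, a bound of -0.98, followed by Csf2rb at -0.65 and Irf8, a macrophage transcription factor, at -0.51.

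All 4 measurable genes of the MHC class II list were 2-fold or more lower, with a median of -1.42. Cd74, the invariant chain, was at 9.35 with PBS and 7.84 with clodronate, 2.86-fold lower. H2-Aa was at 9.31 and 7.81, 2.82-fold lower. H2-Eb1 was at 7.67 and 6.33, 2.54-fold lower. H2-Ab1 was at 7.02 and 5.82, 2.31-fold lower, with a further, dim probe set at -0.59, a bound. The MHC class II genes therefore kept 35.0% to 43.2% of their signal, more than Clec4f or C1qa. The class I pathway, which nearly all cells use, had a median of 0.08 over 12 measurable genes, none of them past 1.5-fold.

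Among 31 measurable lysosomal genes 4 were 2-fold or more lower, and the list median was -0.07. The 4 were Ctss, Laptm5, Cd68 and Lgmn. Cd68, a macrophage lysosomal glycoprotein, was at 5.57 and 2.64, at least 2.98-fold lower. Lgmn, the protease legumain, was at 8.31 and 7.07, 2.36-fold lower. Ctsc, cathepsin C, followed at -0.40, and 23 of the 31 genes were below 0, where 60.5% of all genes lay above 0.

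Complement genes split into a strongly lower group and a group near 0. The 6 of 24 measurable members that were 2-fold or more lower were Vsig4, C1qa, C1qb, C1qc, Fcna and Cfp. Cfp, properdin, which stabilises the alternative pathway convertase, was at 7.39 and 3.34, at least 10.5-fold lower. The median of all 24 was 0.09, with 16 members above 0 (all genes 0.04, with 60.5% above 0), and the highest value of the list was 0.33. In the haem and iron list 3 of 24 measurable members were 2-fold or more lower. Besides Cd163 these were Slc11a1, a metal transporter of the phagosome membrane, at 6.37 and 4.10 (4.83-fold), and Hmox1, haem oxygenase 1, which opens the haem ring, at 6.11 and 4.03 (4.22-fold). Slc11a1 and Hmox1 thus came down to the edge of what the arrays measure. Id1, a target of BMP signalling, was higher instead, at 6.92 and 7.67, a difference of 0.75.

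Inflammatory mediators gave a mixed picture. Of 8 measurable chemokines 2 were 2-fold or more lower, with a median of -0.49. Ccl6, a macrophage chemokine, was at 7.17 in the PBS pool and 3.72 in the clodronate pool, at least 3.17 lower on the log2 scale. Its second, dim probe set was at -0.27, a bound. Cxcl9, a chemokine induced by interferon-γ, was at 8.15 and 6.62, 2.90-fold lower. Its second probe set, at 4.12 with PBS, differed by -0.12, a bound. Cxcl16 was at least 1.75-fold lower, and Cxcl1, a neutrophil attractant, was higher by 0.49. Of 23 measurable interferon response genes 1, Cxcl9, was 2-fold lower and 5 were 1.5-fold or more lower. Those included Cxcl10 (-0.74), Ifit3 (-0.70), Rsad2 (-0.62) and Gbp2 (-0.80; 0.04 by another probe set). The median of the interferon list was -0.13 with 16 genes below 0, where 60.5% of all genes lay above 0. On the high-fat pair its median was -0.14 with 17 below 0, where 61.4% of all genes lay below 0. There Cxcl9, Gbp2 and Rsad2 differed by -0.89, -0.72 and -0.32 by the probe sets used, and Cxcl10 and Ifit3 by 0.08 and 0.07.

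Il1b, Il1rn and Tnf, the cytokine genes nearest to the study's question, were not measurable. Il1b was at 3.25 with PBS and 2.93 with clodronate, Il1rn, the interleukin-1 receptor antagonist, at 3.18 and 3.03, and Tnf at 2.69 and 2.50. In the list of interleukin-1 and NF-κB genes 1 of 12 measurable members was 2-fold lower, and the median was 0.05. That gene was Il18bp, a secreted inhibitor of interleukin-18, at 6.37 and 4.08, 4.91-fold lower. Casp1, which processes interleukin-1β, differed by -0.56, and Il1r1, the interleukin-1 receptor, by 0.41.

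Of the 61 lower genes, 22 were in none of the 50 lists. Wfdc17, a secreted protein with an antiprotease fold, was at 8.63 in the PBS pool and 3.10 in the clodronate pool, at least 24.7-fold lower. Adgre4, an adhesion receptor related to F4/80, was at 8.02 and 3.74, at least 16.3-fold lower, and a second probe set, at 4.37 with PBS, differed by -0.37, a bound. Cd44, the hyaluronan receptor, was at 7.06 and 4.11, 7.76-fold lower, with other probe sets at -1.87 and -0.08, each a bound. Sdc3, a syndecan, was at 6.72 and 4.55, 4.50-fold lower. Several further genes are named after their values were seen. Fermt3, an activator of leukocyte integrins, was at least 5.83-fold lower by the probe set used and differed by -0.11 by another. Ly86, the MD-1 partner of a Toll-like receptor homologue, was at least 5.44-fold lower. Fabp7, a fatty acid binding protein, was at 5.83 and 1.99, at least 3.56-fold lower. Clec1b, a C-type lectin receptor, was at 7.38 and 6.11, 2.43-fold lower. Lgals3, galectin 3, was at 6.44 and 5.23, 2.31-fold lower. Vcam1, an adhesion molecule, was at 6.27 and 4.89, 2.60-fold lower, with a second probe set at -0.31.

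A few lower genes rested on the probe set chosen. Ap2b1, Mapre2 and Vapb, named after their values were seen, differed by -1.21, -1.15 and -1.02, but by -0.49, -0.48 and -0.49 as medians over their probe sets. On the high-fat pair Mapre2 and Vapb differed by 0.00 and -0.07. Of the 19 lower genes with several measurable probe sets, 17 had all of them below 0 and 6 had all of them 2-fold or more lower. A probe set under 5 with PBS could not be called 2-fold lower.

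Nearly all of these genes lay below 0 in the other pair of pools too. Of the 61, 60 did so in the high-fat pair, which shares no array with the low-fat pair. Their median was -1.79 in the low-fat pair and -1.87 in the high-fat pair. Of all 8524 counted genes 61.4% lay below 0 in the high-fat pair, with a median of -0.05. Marco was the exception, since it was at 3.77 in the high-fat PBS pool and so below the measurable limit on both arrays. Some macrophage genes kept more signal on the high-fat diet and others kept less. Cd5l was at 3.38 after clodronate on the low-fat diet and at 5.82 on the high-fat diet, from PBS values of 10.71 and 10.64. C1qb was at 4.04 and 6.02, from 9.86 and 9.96. Ctss was at 7.22 and 7.87, from 10.10 and 9.96. Other genes went the other way, given here with the low-fat difference first. These included Tyrobp (-2.59 and -3.22), Cd53 (-2.04 and -2.28), Lyz2 (-1.74 and -1.87) and Fcna (-1.74 and -1.85). Lpl, lipoprotein lipase, did so too, with differences of -1.40 and -2.18. Whether such values differed between the diets was not tested.

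Markers of other liver cells stayed near 0. The 16 sinusoidal endothelial genes had a median of 0.09 and a range of -0.44 (Cdh5, VE-cadherin) to 0.51 (F8, clotting factor VIII), with 0 past 1.5-fold. Lyve1, the hyaluronan receptor of these cells, was at 5.12 with PBS and 5.37 with clodronate. The 12 measurable stellate cell and matrix genes had a median of 0.01, with Col3a1, a fibrillar collagen, highest at 0.42. The 12 hepatocyte genes lay between -0.20 (Apob; 0.25 by a second probe set) and 0.18 (Asgr1). These 3 medians lay within 0.1 of 0 under each scaling tried, and the sign of the stellate median turned. Of 6 cholangiocyte markers 2 were measurable. Krt8 differed by -0.05 (0.13 by another probe set), and Sox9 was at 4.42 with PBS and 3.90 with clodronate, a bound of -0.42.

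Markers of circulating leukocytes were mostly too dim. Of 12 markers of T and NK cells 0 were measurable, of 8 B and plasma cell markers 1, and of 8 dendritic cell markers 1. Ighm, the IgM heavy chain, was at 6.14 with PBS and 6.80 with clodronate, and differed by 1.01 on the high-fat pair. Of 8 monocyte markers 2 were measurable, and Plac8 was at 6.02 and 6.10. The other, Treml4, was at 4.31 and 1.86, a bound of -0.31 that could not have been larger. On the high-fat pair Treml4 was at 4.13 and 1.99. Of 12 neutrophil markers 2 were measurable, and only after clodronate. S100a8 was at 2.14 and 4.15 and S100a9 at 2.26 and 4.05, which puts both just over the limit, and both were below 4 on the high-fat arrays.

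Only 19 genes were 2-fold or more higher, 18 of them measured on both arrays, and 8 of them were members of a list. The acute phase list holds mainly, but not only, genes whose products hepatocytes secrete in inflammation. It gave 3 of the 19. Lcn2, lipocalin 2, which withholds iron carriers from bacteria, was at 4.94 with PBS and 7.68 with clodronate, 6.69-fold higher. Mt1, the zinc-binding metallothionein 1, was at 6.09 and 7.66, 2.98-fold higher. Orm2, an orosomucoid, was at 7.35 and 8.47, 2.17-fold higher, and differed by 2.93 on the high-fat pair. Saa1, serum amyloid A1, was at 9.97 and 10.77, 1.75-fold higher. Lbp, which hands lipopolysaccharide to its receptor, was at 9.67 and 10.48, 1.76-fold higher.

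Most of the acute phase list lay above 0. Of 25 measurable members 23 were above 0, 5 of them 1.5-fold or more, and the median was 0.23 (all genes 0.04, with 60.5% above 0). After centring or quantile normalization 21 of the 25 were above 0. On the high-fat pair 20 of the 25 were above 0 and the median was 0.07 (all genes -0.05, with 36.1% above 0). Lcn2 is also a granule protein of neutrophils. Of the 12 neutrophil markers 10 were below 4 on both low-fat arrays, S100a8 and S100a9 were just over 4 after clodronate, and their part in the Lcn2 value was not tested. Fgl1, fibrinogen-like 1, a secreted liver protein outside the list and named after its value was seen, was at 10.75 and 11.75, 2.00-fold higher. Of 9 measurable metallothionein and zinc genes 8 were above 0 (60.5% of all genes), and 5 were on the high-fat pair (36.1% of all genes). Mt2 was at 4.02 and 4.60. Stat3, which carries the interleukin-6 signal, was at 9.82 and 10.22, and its feedback inhibitor Socs3 was at 7.35 and 7.56.

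A few targets of growth hormone signalling were higher on the low-fat diet. Cish, a feedback inhibitor that STAT5 induces, was at 5.44 with PBS and 7.17 with clodronate, 3.30-fold higher. Socs2, which dampens the growth hormone receptor, was at 8.12 and 9.22, 2.13-fold higher, and its second probe set differed by 1.17. Stat5a, a STAT5 isoform, was at 4.22 and 5.03, 1.75-fold higher, with a second, dim probe set at 0.10, a bound. Igf1, the growth factor that growth hormone induces in liver, differed by 0.24, and Igfals, its carrier, by 0.38. The list of 18 measurable genes had a median of 0.08 with 11 above 0, close to all genes (median 0.04, with 60.5% above 0). On the high-fat pair Cish and Socs2 lay on the other side, at -0.78 and -0.69. The STAT site TTCNNNGAA was found 2 times in the Cish promoter, beginning at the annotated start and 11 bases after it. It is printed for chr9:107296654-107296683 (plus strand, RefSeq, GRCm38.p6), with the sites in capitals.
Cish: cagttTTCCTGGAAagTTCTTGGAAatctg
That site, which reads the same on both strands, occurred in 8.30% of 32851 promoters of 300 bases, so a match says little by itself.

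Cyp26a1, which breaks down retinoic acid and is induced by it, was at 3.13 in the PBS pool and 6.21 in the clodronate pool, at least 4.63-fold higher. On the high-fat arrays it was at 3.99 and 4.04. It was the only one of 15 measurable retinoid genes past 1.5-fold, and the list median was 0.06. Its promoter is shown for the retinoic acid response element, a direct repeat of the letters AGTTCA or AGGTCA spaced by 5 bases. It lies at chr19:37697558-37697807 (plus strand, RefSeq, GRCm38.p6, the 250 bases before the annotated start). Capitals mark the element, read on the opposite strand, which begins 32 bases before the start.
Cyp26a1: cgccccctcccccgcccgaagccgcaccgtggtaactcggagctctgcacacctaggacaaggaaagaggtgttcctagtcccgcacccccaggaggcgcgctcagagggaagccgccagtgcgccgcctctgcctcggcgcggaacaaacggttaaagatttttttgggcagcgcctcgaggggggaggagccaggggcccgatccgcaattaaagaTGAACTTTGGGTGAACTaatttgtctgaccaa
Searched on both strands, the element was found in 13 of 32851 promoters (0.0396%). The match describes the sequence and not the cause of the difference.

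The remaining higher genes had varied roles. Anxa1, annexin A1, a glucocorticoid-induced anti-inflammatory protein, was at 5.68 with PBS and 6.96 with clodronate, 2.43-fold higher. Fkbp5, another glucocorticoid target, was at 5.26 and 6.20, a difference of 0.94, with a second, dim probe set at 0.10, a bound. Yet the glucocorticoid list had a median of 0.04, and Tsc22d3, a classical member, differed by -0.46. Pfkfb3, which makes the activator of phosphofructokinase, was at 5.20 and 6.48, 2.43-fold higher. Onecut1, the hepatocyte factor HNF6, was at 5.67 and 6.94, 2.42-fold higher, and its second probe set was 2-fold higher too. Tifa, an adaptor of NF-κB signalling, was at 4.40 and 5.64, 2.37-fold higher. E2f8, an atypical E2F factor, was at 4.19 and 5.34, 2.21-fold higher.

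Several of these genes were close to the limit of measurement or rested on 1 probe set. Akr1b8, an aldo-keto reductase, was at 4.16 with PBS and 5.28 with clodronate. Atoh8, a transcription factor of the bHLH family, was at 4.34 and 5.44. Tfpt was at 4.10 and 5.39 by the probe set used, while another of its probe sets differed by -0.26. Rgs3, a regulator of G protein signalling, was at 5.62 and 7.01, 2.62-fold higher, with a second probe set at 0.37. Lppos and D130043K22Rik differed by 1.09 and 1.14, and Adh6-ps1, named after its value was seen, by 1.02. With a limit of 5 in place of 4, 12 genes were 2-fold higher in place of 19.

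The higher genes had no common direction on the other diet. In the high-fat pair 9 of the 19 were above 0 and 10 below, with a median of -0.17 against 1.24 on the low-fat diet. Of all 8524 counted genes 36.1% lay above 0 in the high-fat pair and 61.4% below, with a median of -0.05. Mt1 (0.89) and Lcn2 (0.69) were above 0 there and Orm2 was higher still. Cish, Socs2, D130043K22Rik (-0.76) and Atoh8 (from 5.26 to 4.26) were 1.5-fold or more lower by the probe set used. The second Socs2 probe set differed by -0.26 there, which is under 1.5-fold. The difference between the diets was not tested.

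**Figure D3:**
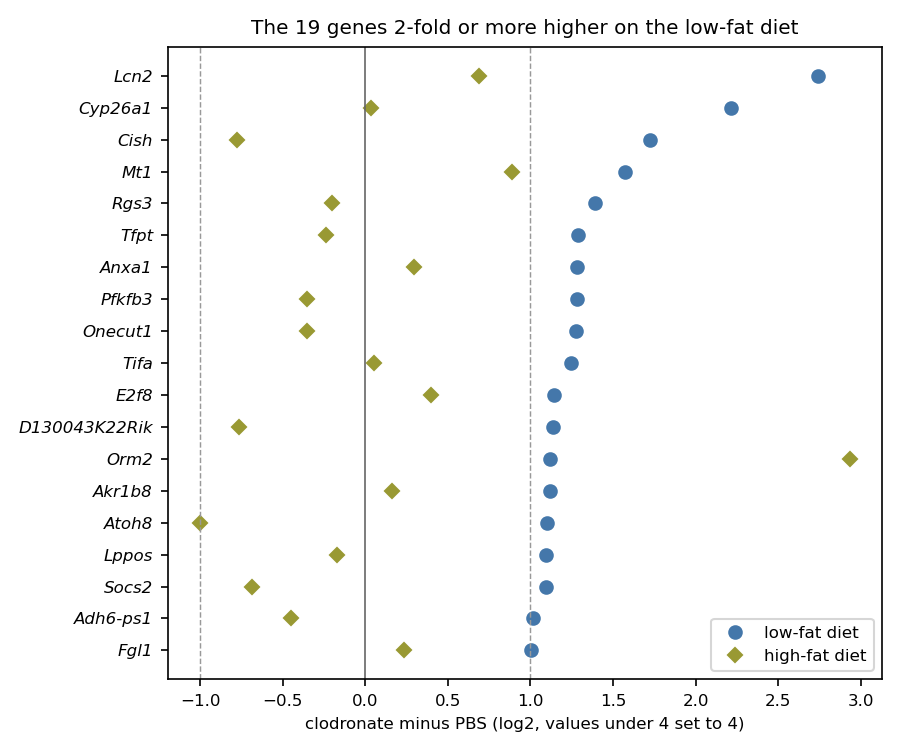
Clodronate minus PBS (log2, values under 4 set to 4) for the 19 genes that were 2-fold or more higher in the low-fat pair (circles), with the same genes in the high-fat pair (diamonds), 1 pooled array a side. The genes were chosen by the circles. Of the diamonds 9 lie above 0 and 10 below, where 36.1% and 61.4% of all counted genes did. Orm2 is the single gene past 1 on both diets.

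Stress genes of the endoplasmic reticulum (ER), which raise its folding capacity, were lower by small amounts. Of 27 measurable members 23 were below 0, 2 of them by 1.5-fold or more, and the median was -0.28, against 0.04 for all genes. Creld2, which assists folding in the reticulum, was at 10.52 with PBS and 9.61 with clodronate, 1.88-fold lower. Syvn1, a ubiquitin ligase that clears misfolded proteins, was at 10.78 and 10.02, 1.70-fold lower. Ero1b, an oxidase that forms disulfide bonds, was at 10.45 and 9.89, and Sdf2l1, a chaperone partner, was at 7.01 and 6.50. Hspa5, the chaperone BiP, was at 13.33 and 12.98, a difference of -0.35. Chac1, which degrades glutathione, was on the other side at 5.72 and 6.24. In the high-fat pair 24 of the 27 were below 0, with a median of -0.17, where all genes had a median of -0.05 and 61.4% lay below 0. The sign of the low-fat median held under each scaling and probe set choice tried, with values from -0.33 to -0.17.

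Some of these genes share a promoter element through which the stress factors ATF6 and XBP1 act. It is the ER stress response element, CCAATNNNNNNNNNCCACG, searched on both strands. It is shown because 9 of the 26 listed genes with a promoter entry held it, against 37 of 27025 genes with an entry (0.137%). The list was made up of ER stress genes, so this share is a description and was not tested. The promoters of Hspa5 (chr2:34771840-34772089, plus strand) and Creld2 (chr15:88819396-88819645, plus strand) are the 250 bases before the annotated start, from RefSeq, GRCm38.p6. Capitals mark the element, which begins 65 bases before the start in Hspa5 and, on the opposite strand, 126 bases before it in Creld2.
Hspa5: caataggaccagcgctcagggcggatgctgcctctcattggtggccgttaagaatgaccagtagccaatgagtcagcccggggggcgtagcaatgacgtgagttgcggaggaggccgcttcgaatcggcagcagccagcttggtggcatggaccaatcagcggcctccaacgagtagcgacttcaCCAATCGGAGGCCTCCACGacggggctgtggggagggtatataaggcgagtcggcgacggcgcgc
Creld2: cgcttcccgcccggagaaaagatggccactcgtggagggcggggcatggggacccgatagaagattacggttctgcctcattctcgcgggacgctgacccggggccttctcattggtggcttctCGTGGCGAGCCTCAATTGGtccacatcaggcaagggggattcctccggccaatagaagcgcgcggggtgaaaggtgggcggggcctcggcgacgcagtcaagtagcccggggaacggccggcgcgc
The other genes of the list carried the element as follows, each printed in the direction of its gene, so that a run starting with CGTGG holds it on the opposite strand.
Syvn1: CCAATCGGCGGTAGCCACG
Ero1b: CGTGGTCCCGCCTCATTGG
Derl3: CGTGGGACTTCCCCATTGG
Dnajc3: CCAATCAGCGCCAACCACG
Hsp90b1: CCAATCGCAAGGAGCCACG
Pdia6: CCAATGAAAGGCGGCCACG
Calr: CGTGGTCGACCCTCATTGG
These runs lie at chr19:6046532-6046550 (Syvn1), chr13:12565682-12565700 (Ero1b), chr10:75893242-75893260 (Derl3), chr14:118937827-118937845 (Dnajc3), chr10:86705638-86705656 (Hsp90b1), chr12:17266491-17266509 (Pdia6) and chr8:84847075-84847093 (Calr).

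All 9 element-bearing genes of the list were below 0 after clodronate, with a median of -0.35. They ranged from -0.91 (Creld2) through -0.47 (Derl3, a bound), -0.24 (Dnajc3), -0.19 (Hsp90b1) and -0.15 (Pdia6) to -0.07 (Calr). The 15 measurable list members whose promoter lacked these letters had a median of -0.22, with 11 below 0. The 5 measurable genes that held it outside the list (Acacb, Acnat2, Alg12, Canx and Pan2) had a median of 0.01, with 2 below 0. In the high-fat pair these 5 had a median of -0.19 with 4 below 0, and the 9 listed genes a median of -0.17. The difference between these sets was not tested.

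**Figure D4:**
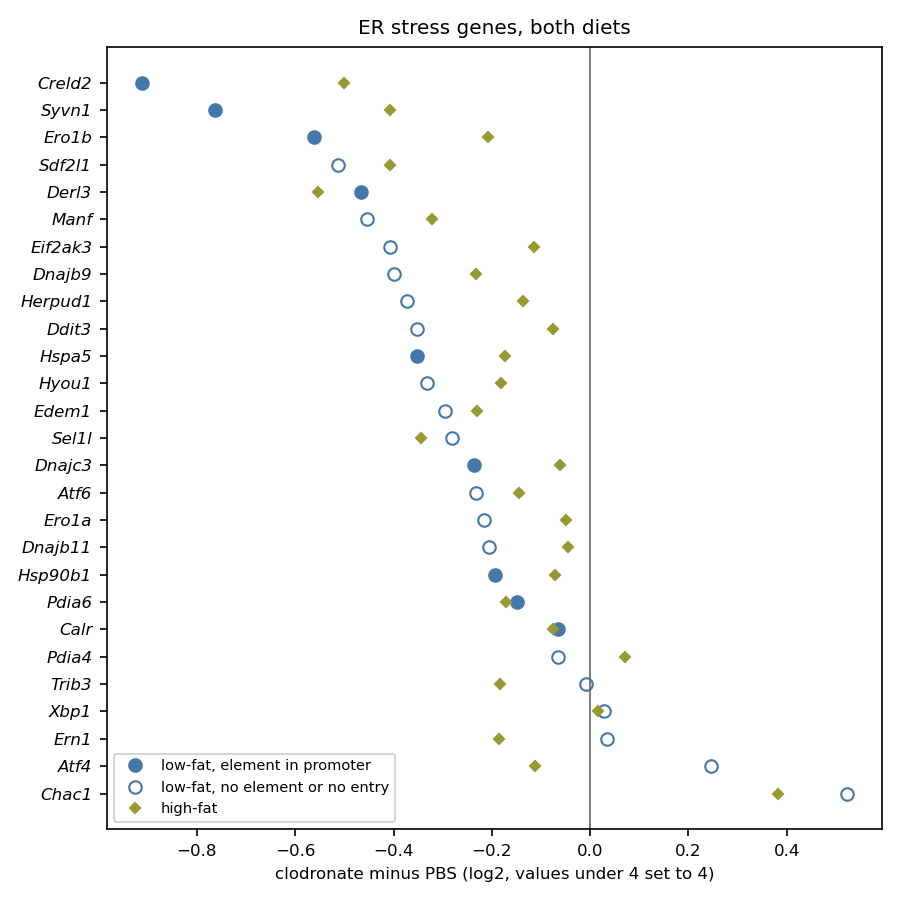
Clodronate minus PBS (log2, values under 4 set to 4) for 27 measurable ER stress genes in the low-fat pair (circles, filled where the promoter window holds the ER stress response element) and in the high-fat pair (diamonds), 1 pooled array a side. Of the circles 23 lie below 0, and the filled ones run from -0.91 (Creld2) to -0.07 (Calr).

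Cytosolic chaperones moved by less. Of 17 measurable heat shock genes 15 were below 0, and the median was -0.10 (all genes 0.04, with 60.5% above 0). In the high-fat pair 16 were below 0 and the median was -0.14 (all genes -0.05, with 61.4% below 0). Hspa1b, the inducible Hsp70, was at 10.89 with PBS and 10.07 with clodronate, 1.77-fold lower, Hsph1 differed by -0.35 and Bag3 by -0.27. Among immediate early genes, which respond within minutes to stress or handling, Klf6 was at 5.61 and 4.69 (-0.22, a bound, by a second probe set) and Egr1 at 5.84 and 5.20, while Ier2 was higher by 0.42. That list had a median of 0.11 over 17 measurable genes. In the circadian list Usp2, a clock output, was at 6.15 and 5.39 and Cry1, a clock repressor, at 7.29 and 6.85, while Dbp differed by 0.37. Usp2 and Cry1 were on the other side in the high-fat pair, at 0.32 and 0.46.

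Genes of fat metabolism lay close to 0. Ppara was at 11.06 with PBS and 11.15 with clodronate. Of 29 measurable PPARα targets 0 were past 1.5-fold in either direction and 20 were above 0. Their median was 0.05, the same as that of all genes to within 0.01. Of all genes 1.77% were 1.5-fold or more higher, 1.65% were that much lower, and 60.5% lay above 0. A count of 0 in a list this short, here or in other paragraphs, therefore says little by itself. The PPARα targets furthest from 0 were Fgf21, a fasting hormone, at 5.14 and 4.59, and Cyp4a12a, a fatty acid hydroxylase, at 10.99 and 10.46. Pdk4, which spares glucose, differed by -0.38 and Acaa1a, a peroxisomal thiolase, by 0.24. Of 24 lipogenesis genes 0 were past 1.5-fold, and the median was 0.03. Pnpla3, a lipase of lipid droplets, differed by -0.49 and Lpin1, a phosphatidate phosphatase, by 0.44. Pparg, which drives lipid storage, was at 4.96 and 5.49. In the apolipoprotein and lipid transfer list Lpl was the single gene past 1.5-fold, at 7.96 and 6.57, 2.63-fold lower, and both of its probe sets were lower. Centring each array on its median moved the PPARα list to 0.00 and the lipogenesis list to -0.02.

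Single genes stood out in other metabolic lists. Cyp7a1, the rate-limiting enzyme of bile acid synthesis, was at 8.85 with PBS and 9.48 with clodronate, 1.55-fold higher, but differed by -0.73 in the high-fat pair. Mvd, an enzyme of the mevalonate pathway, was at 6.32 and 5.59, and was also lower in the high-fat pair, by -0.60. Lgr5, a Wnt target of hepatocytes around the central vein, was at 3.94 and 4.75, at least 1.69-fold higher. Lepr, the leptin receptor, was at 6.30 and 6.83. Nr1i3, the xenobiotic receptor CAR, was at 8.35 and 8.75, and 0 of 27 xenobiotic genes were past 1.5-fold. The 27 oxidative phosphorylation genes lay between -0.14 and 0.14, and the 16 measurable ribosomal protein genes between -0.10 and 0.16. These last ranges describe how closely these genes matched after GCRMA had put the 2 arrays on a common scale, and are not a separate check of the arrays.

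**Figure D5:**
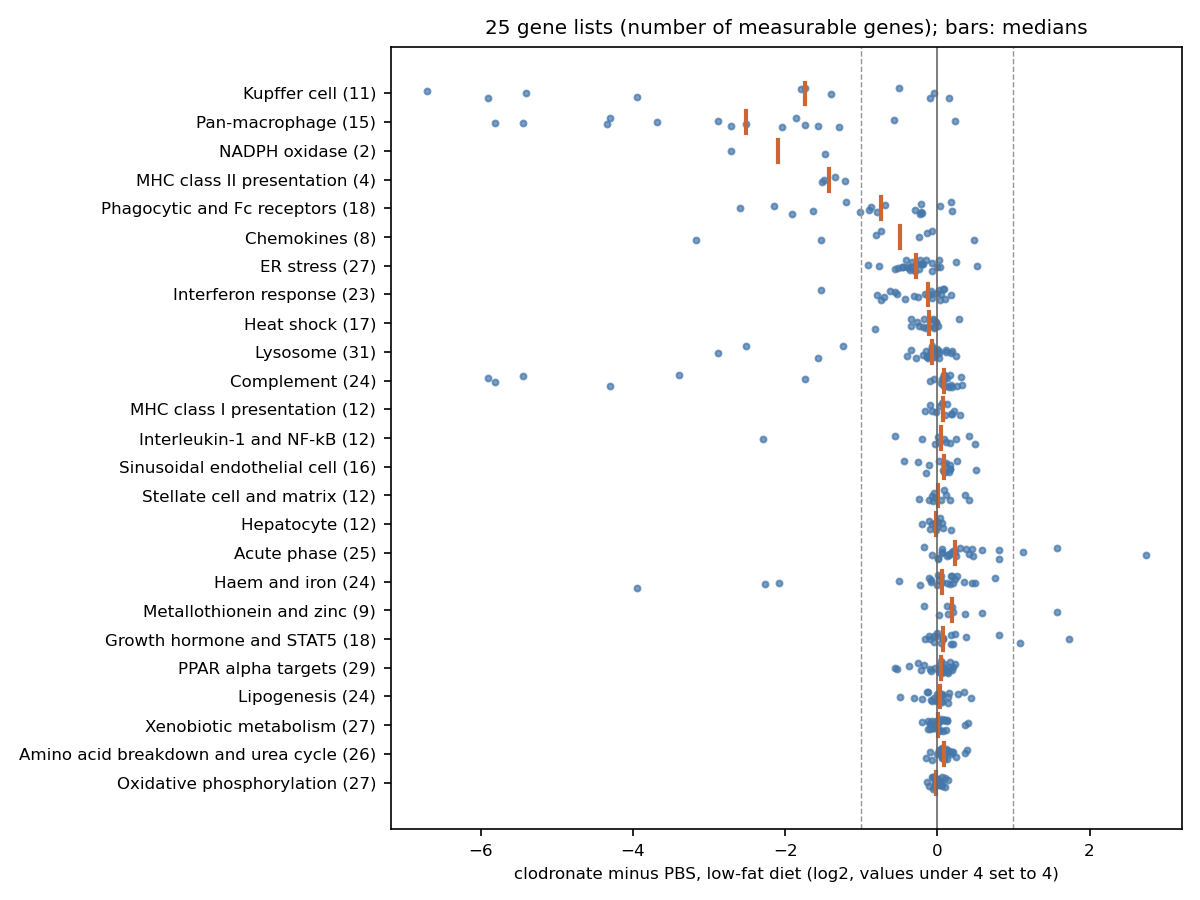
Clodronate minus PBS on the low-fat diet (log2, values under 4 set to 4, horizontal axis) for the measurable members of 25 gene lists, 1 point per gene, with the median as a bar and the number of measurable genes in parentheses. The macrophage and MHC class II medians lie below -1, the ER stress median at -0.28 and the acute phase median at 0.23, while the endothelial, stellate, hepatocyte, PPARα and lipogenesis medians lie within 0.1 of 0.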

How the data were processed

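RNA of 4 liver pools was measured on single-colour Affymetrix arrays. The deposited table holds log2 values for 45101 probe sets, which, per the submitters' processing notes, the authors computed with GCRMA 2.24.1. They were used as deposited, and 0 columns of samples were left unmapped. Gene names came from the platform's annotation table (34958 with 1 symbol, 932 with several, 9211 with none); Entrez identifiers of 34754 were found in RefSeq GRCm38.p6, which changed 0 symbols. Each gene was represented by its brightest single-symbol probe set, by the mean of all 4 arrays. Differences, counts past 2-fold and 1.5-fold, and medians of 50 lists over measurable members were computed in Python 3.11.15 with pandas 2.3.3. No test was possible with 1 array per group, whose number limits the precision. The calling step was run on simulated data without noise, with changes planted only in brighter genes. That run checks the code and not how reliable the calls are, least of all among dim genes. Genes to name were drawn from the 15 largest measured differences and 8 largest bounds per direction. Up to 5 per list and all measurable members of lists with under 12 could be named too. Ppara, Il1b, Il1rn, Tnf, Clec4f, Csf1r and Adgre1 were always named. Not every gene that could be named is in the text. Genes holding a printed promoter element are also named, and other exceptions are marked. The comparison, lists and rules were chosen with earlier results of these data known. Promoters came from RefSeq, 250 bases before to 50 after each start. Alternatives were other floors, folds, scalings and probe set rules.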

Additional observations from a re-analysis of the deposited data

Results flagged for a closer look

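After clodronate 4 genes lay on opposite sides on the 2 diets, 2-fold or more higher on the low-fat diet and 1.5-fold or more lower on the high-fat diet, with 1 pooled array per group. Cish, a feedback inhibitor of cytokine signalling, differed by 1.72 on the low-fat diet and by -0.78 on the high-fat diet. Socs2, which acts on the growth hormone receptor, differed by 1.09 and -0.69 by the probe set used. Its second probe set differed by 1.17 and -0.26, so the call on the high-fat diet rests on 1 probe set. Atoh8, a transcription factor, differed by 1.10 on the low-fat diet and went from 5.26 to 4.26 on the high-fat diet. D130043K22Rik differed by 1.14 and -0.76. The difference between the diets was not tested for any of them, and Atoh8 was close to the measurable limit of 4 in the low-fat PBS pool (4.34) and in the high-fat clodronate pool.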

How the results depend on the processing

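No paired analysis was possible because each group was 1 array. With a floor of 5, 12 genes were 2-fold higher and the pan-macrophage median was -1.84; with no floor the Kupffer cell median was -3.07. A fold of 1.5 gave 151 higher and 141 lower genes (97 and 170 after quantile normalization), and a fold of 3 gave 3 and 35. Under the other floors, scalings and probe set rules the counts stayed within 1.5 times the main ones, at 17 to 26 higher and 48 to 82 lower genes. All 61 lower genes were again 2-fold lower after centring and after quantile normalization, and 17 of the 19 higher ones were. The acute phase, ER stress and PPARα medians moved by under 0.12 in every alternative. The median over probe sets took 9 genes under 2-fold, Ap2b1, Cxcl9, Evl, Mapre2, Rgs2, Rgs3, Tfpt, Vapb and Vcam1. No named gene past 2-fold changed its sign in an alternative. Dim signal limits genes between 4 and 6, where the central 95% ran from -0.69 to 0.63, against -0.19 to 0.24 from 12 upward.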

Other observations

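On the low-fat diet 1852 measurable probe sets had no symbol or several symbols and enter no count above. After clodronate 4 of them were higher by 2-fold or more, and 10 were lower by that much.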
